A study of Homo sapiens with 12 samples.

Results

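The 40 genes described here encode structural proteins of the extracellular matrix and the proteins that assemble it: 13 collagen chains, fibrillins and other elastic fibre proteins, laminin and nidogen chains, adhesive glycoproteins, proteoglycans, the enzymes that cleave and cross-link collagen, and 3 genes that mark mesenchymal cells. They were taken by gene symbol, as 1 probe set per gene, from the 18417 genes with a usable probe set on the array, and all 40 were found. Fibrillar collagens are made as procollagens, folded in the endoplasmic reticulum, trimmed outside the cell and joined by lysyl oxidases, while collagen IV, laminins, nidogens and perlecan form the sheet-like basement membrane. In the brain this basement membrane surrounds blood vessels, and cultured glioblastoma lines often also make the fibrous collagens and fibronectin that are typical of mesenchymal cells.

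The cells were A172, an adherent line established from a human glioblastoma, and transcripts were read on GeneChip Human Gene 1.0 ST arrays, which carry probes along the exons of each gene. Of the 12 arrays, 3 were of clone 8 and 3 of clone 7, both stably transfected with pcDNA3.1 carrying hHSS1, 3 were of mock cells stably transfected with empty pcDNA3.1, and 3 were of wild-type cells that were not transfected. hHSS1, now named EMC10, encodes a subunit of the membrane protein insertion complex of the endoplasmic reticulum and a secreted protein. Its construct carried a histidine tag, and the stable clones were kept under G-418, a drug that kills cells without the vector. All cultures were harvested after 4 days. Each clone and the mock line is 1 cell line, so the spread between its 3 cultures holds nothing about other lines made the same way. The log2 level of EMC10 in replicates 1, 2 and 3 was 12.13, 12.18 and 11.75 in clone 8 and 11.57, 11.72 and 12.30 in clone 7. It was 9.20 to 9.51 in mock and 10.43 to 11.13 in wild-type cells, with no overlap between the clones and either control. The array labelled clone 7 replicate 3 lay nearer clone 8 replicates 1 and 2. The array labelled clone 8 replicate 3 lay nearer clone 7 replicates 1 and 2. POSTN below divided into the same sets of arrays, and the part of the EMC10 level in that was not tested.

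Promoter sequences (RefSeq, GRCh38.p14, 250 bases before to 50 after the gene's start) were found for 27 of the 40 genes. The sequences of 5 are given, read 5′ to 3′ on the gene's own strand, because the results below turn on these genes: COL4A1 and COL4A2, a pair transcribed away from each other on chromosome 13, POSTN and PCOLCE, in which the clone arrays lay furthest apart among the genes matched, and VCAN, which differed most between the clones and mock among those that passed the test. Capitals mark each match, on either strand, to the CCAAT box (CCAAT), the TATA box (TATAAA) and the GC box (GGGCGG). No matches overlapped in these windows.
COL4A1: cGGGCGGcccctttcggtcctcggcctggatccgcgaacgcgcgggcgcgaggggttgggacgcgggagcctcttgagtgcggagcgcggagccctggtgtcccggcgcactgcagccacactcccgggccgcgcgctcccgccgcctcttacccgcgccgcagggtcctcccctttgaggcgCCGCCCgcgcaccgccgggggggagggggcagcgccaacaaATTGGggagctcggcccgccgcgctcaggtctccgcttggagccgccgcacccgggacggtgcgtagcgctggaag
COL4A2: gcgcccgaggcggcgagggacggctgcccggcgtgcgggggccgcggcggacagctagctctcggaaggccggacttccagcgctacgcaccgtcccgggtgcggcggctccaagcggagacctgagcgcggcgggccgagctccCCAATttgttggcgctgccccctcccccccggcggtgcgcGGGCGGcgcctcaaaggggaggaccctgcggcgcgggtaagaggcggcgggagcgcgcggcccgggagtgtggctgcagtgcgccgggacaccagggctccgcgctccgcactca
POSTN: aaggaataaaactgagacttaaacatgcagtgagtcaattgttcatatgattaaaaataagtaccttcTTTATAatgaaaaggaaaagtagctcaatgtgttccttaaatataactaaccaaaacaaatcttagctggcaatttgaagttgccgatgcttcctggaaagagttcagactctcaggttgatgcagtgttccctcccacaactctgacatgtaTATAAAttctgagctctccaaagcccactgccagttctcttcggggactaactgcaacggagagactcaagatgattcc
PCOLCE: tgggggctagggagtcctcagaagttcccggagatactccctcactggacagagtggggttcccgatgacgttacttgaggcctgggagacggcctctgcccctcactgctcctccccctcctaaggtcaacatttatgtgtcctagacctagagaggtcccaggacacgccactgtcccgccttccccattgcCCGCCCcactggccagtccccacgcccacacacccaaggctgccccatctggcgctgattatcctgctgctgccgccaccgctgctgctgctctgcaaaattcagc
VCAN: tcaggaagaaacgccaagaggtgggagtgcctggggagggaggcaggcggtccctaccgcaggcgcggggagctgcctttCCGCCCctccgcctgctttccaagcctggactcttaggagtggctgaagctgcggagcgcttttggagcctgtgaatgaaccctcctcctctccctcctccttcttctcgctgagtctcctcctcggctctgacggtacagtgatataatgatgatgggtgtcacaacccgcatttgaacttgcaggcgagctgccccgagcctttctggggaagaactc
These windows lie at chr13:110307108-110307407 (COL4A1, minus strand), chr13:110307034-110307333 (COL4A2, plus strand), chr13:37598719-37599018 (POSTN, minus strand), chr7:100602113-100602412 (PCOLCE, plus strand) and chr5:83471494-83471793 (VCAN, plus strand). The starts of COL4A1 and COL4A2, which encode the chains that twist together into collagen IV, stand 127 bases apart, and 226 bases are common to both windows, so the same CCAAT match is counted in each. The GC box was found in 20 of the 27 promoters (74.1%), against 44.6% of all 27305 promoters in the table, the CCAAT box in 8 (29.6%, against 35.7%) and the TATA box in 2 (7.41%, against 12%). A match is a run of letters and not a measured binding site.

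Each value below is a log2 expression level, so that a difference of 1 is a doubling, and levels are compared only within a gene, since probe sets differ in brightness. The arrays were alike in scale, with medians of 8.60 to 8.67 and lower quartiles of 7.00 to 7.12. No detection call came with the data, and genes below an array's lower quartile are called dim. Of the astroglial markers, VIM was high on each array (13.37 to 13.74), GFAP lay close to the array medians (8.57 to 8.92), and of the other 6 S100B, AQP4 and SLC1A2 were dim on all 12 arrays, SLC1A3 on 10 and ALDH1L1 and NES on 0. Of the 5 endothelial markers PECAM1 was dim on all 12 arrays, CDH5, VWF and KDR were dim on 0 but below the median on all 12, and CLDN5 (8.70 to 9.05) was above the median on all 12.

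The arrays labelled clone 7 replicate 3 and clone 8 replicate 3 did not lie with the other arrays of their labels. Over the 18377 genes outside the matrix list, with each gene's mean taken off, the array labelled clone 7 replicate 3 correlated at -0.32 and -0.34 with the other clone 7 arrays and at 0.47 and 0.76 with clone 8 replicates 1 and 2. The array labelled clone 8 replicate 3 correlated at 0.09 and -0.40 with the other clone 8 arrays and at 0.63 and 0.56 with clone 7 replicates 1 and 2. Mock arrays correlated with each other at 0.56 to 0.66 and wild-type arrays at 0.53 to 0.69. Clone 7 replicates 1 and 2 correlated with each other at 0.79, and clone 8 replicates 1 and 2 at 0.27. These correlations are across genes, which are not independent replicates. In 29 of the 40 matrix genes (72.5%) both of these arrays lay nearer the mean of the remaining arrays of the other clone, and so did 41.2% of the other genes. Each array was kept under its label, and results that rest on these arrays are given with and without them. The mean over both clones does not depend on which clone an array is labelled as, because each clone has 3 arrays, but the error of that mean does. The arrays were left out because they resembled the other clone, so a wider gap between the clones and a narrower spread without them follow in part from that choice, which was made after the data were seen.

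**Figure D1:**
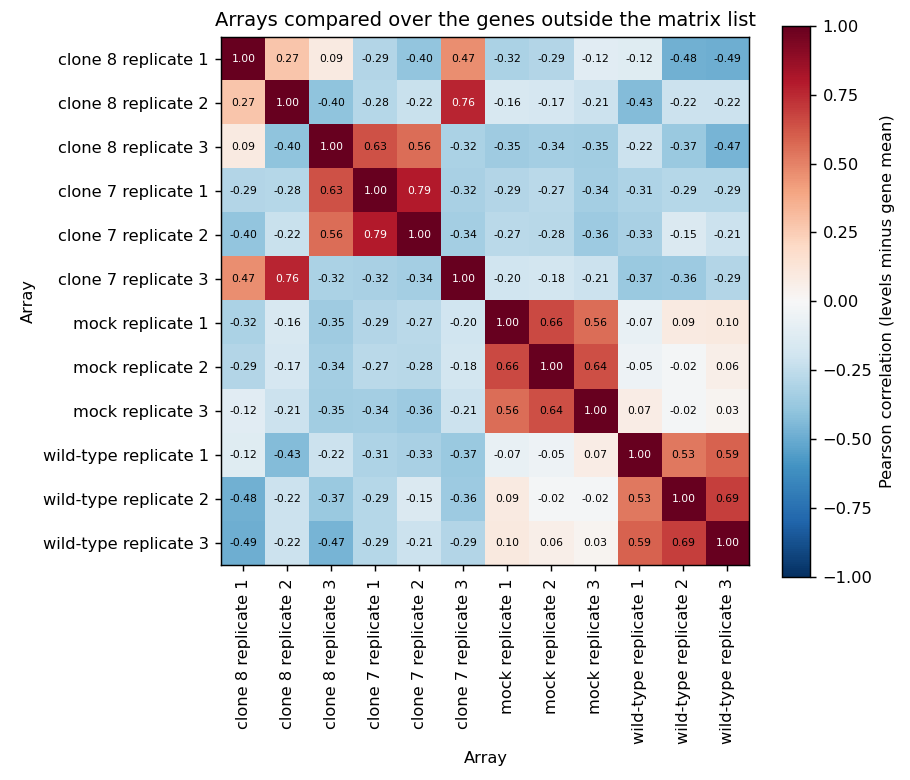
Pearson correlation of every pair of the 12 arrays over the 18377 genes outside the matrix list, after each gene's mean was subtracted (rows and columns are arrays, colour and number give the correlation). The array labelled clone 7 replicate 3 correlates at 0.76 with clone 8 replicate 2, and the array labelled clone 8 replicate 3 at 0.63 with clone 7 replicate 1.

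Most of the matrix genes were not dim in these cells, which is not a detection call. Decorin (DCN), a small collagen-binding proteoglycan, was dim on all 12 arrays, FAP on 3 and NID2 on 1, and the other 37 genes were dim on 0 arrays. DCN, NID2, COL6A3 and TNC lay below the array median on all 12 arrays, LUM and FAP on 10, LAMA4 on 3 and POSTN on 1. SPARC, a collagen-binding glycoprotein, lay between 14.43 and 14.57 on the 12 arrays. In whole cultures, fewer cells making a transcript and less transcript per cell cannot be told apart.

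**Figure D2:**
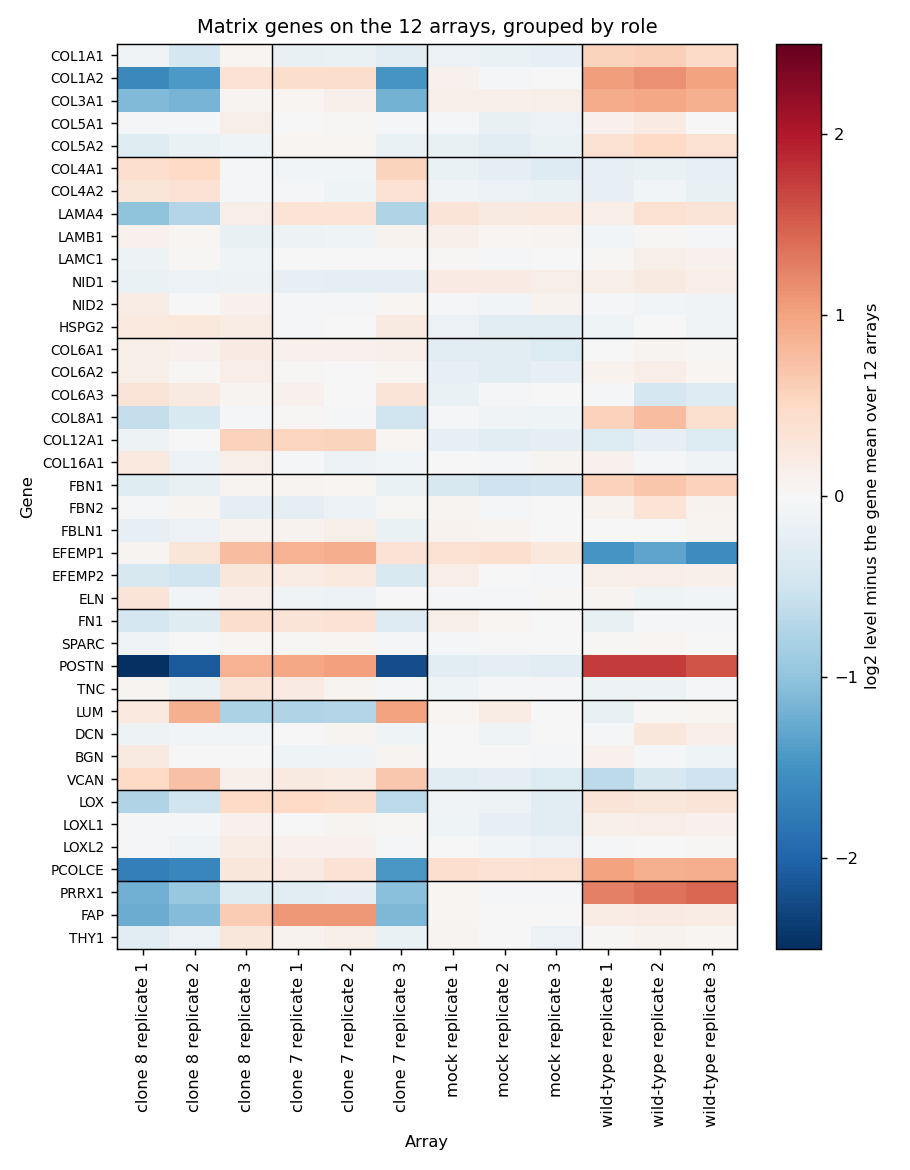
Log2 level of the 40 matrix genes (rows, grouped by role) on the 12 arrays (columns), each shown as the difference from that gene's mean over the 12 arrays. Clone 8 replicates 1 and 2 and the array labelled clone 7 replicate 3 share low POSTN, PCOLCE, COL1A2, COL3A1 and FAP, while all 3 wild-type arrays are high in PRRX1, POSTN and COL3A1 and low in EFEMP1.

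The first comparison asked which matrix genes differed between the cells carrying hHSS1 and the cells carrying the empty vector. Over both clones against mock, 7 of the 40 genes passed limma's test (adjusted p under 0.05 over all 18417 genes): the microfibrillar collagen VI chains COL6A1 and COL6A2, FBN1, HSPG2, VCAN and LOXL1 were higher and NID1 was lower. Over all genes 6.38% passed, 2.87% higher and 3.51% lower. VCAN alone also differed by at least 1.5-fold, a rule that 0.728% of all genes met. The median difference of the 40 genes was 0.02, against 0.01 over all genes.

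VCAN encodes versican, a large chondroitin sulphate proteoglycan. Its levels were 10.69, 10.93 and 10.34 in clone 8, 10.42, 10.39 and 10.87 in clone 7, 9.94, 9.95 and 9.86 in mock and 9.55, 9.80 and 9.68 in wild-type cells (probe set 8106743, chromosome 5). Every clone array lay above every mock and every wild-type array. The clones were 1.61-fold above mock (log2 0.69 ± 0.13 SE, limma adjusted p = 0.00830), and the difference was 0.66 with an adjusted p of 0.0526 in limma without mock replicate 3.

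COL6A1 and COL6A2 encode chains of collagen VI, which forms beaded filaments close to the cell surface, and lie next to each other on chromosome 21. The COL6A1 level was 11.71, 11.66 and 11.76 in clone 8, 11.67, 11.66 and 11.68 in clone 7, 11.28, 11.30 and 11.21 in mock and 11.56, 11.63 and 11.59 in wild-type cells (probe set 8069269, chromosome 21). For COL6A2 it was 11.04, 10.91 and 11.06 in clone 8, 10.92, 10.90 and 10.94 in clone 7, 10.68, 10.60 and 10.68 in mock and 10.97, 11.07 and 10.94 in wild-type cells (probe set 8069301, chromosome 21). In both genes the 6 clone arrays lay together, above the mock arrays and close to the wild-type arrays. Mock was the lowest group, with the clones above it by 0.43 ± 0.05 SE for COL6A1 and 0.31 ± 0.05 SE for COL6A2 (limma adjusted p = 0.000357 and 0.00526). The chain that pairs with them, COL6A3, differed by 0.25 ± 0.10 SE and did not pass (limma adjusted p = 0.167). The neighbours of COL6A1 were the 10 measured genes on each side along chromosome 21, with COL6A2 left out as a gene of the list. Among these 19 the median difference between clones and mock was 0.20, with 4 genes higher and 0 lower. In mock against wild-type their median was -0.10, with 0 higher and 3 lower. For both clones against wild-type it was 0.02, with 1 higher and 2 lower.

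Nidogen 1 (NID1), which bridges the laminin and collagen IV networks, was the single matrix gene that passed as lower. Its level was 12.22, 12.24 and 12.26 in clone 8, 12.19, 12.13 and 12.16 in clone 7, 12.59, 12.59 and 12.54 in mock and 12.53, 12.60 and 12.56 in wild-type cells (probe set 7925320, chromosome 1). The 6 clone arrays lay below all 6 control arrays, and the controls overlapped each other. The difference from mock was log2 -0.37 ± 0.04 SE, limma adjusted p = 0.000597, and it passed in each of the 12 fits that left out 1 array. Among the 20 nearest genes on chromosome 1 the median difference was -0.19, with 6 genes lower and 1 higher. The part of the chromosomal position in the NID1 and COL6A1 results was not tested.

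Perlecan (HSPG2), the heparan sulphate proteoglycan of basement membranes, was higher. Its levels were 11.06, 11.07 and 11.00 in clone 8, 10.75, 10.81 and 11.03 in clone 7, 10.67, 10.53 and 10.53 in mock and 10.69, 10.82 and 10.73 in wild-type cells (probe set 7913450, chromosome 1). Clone 7 replicates 1 and 2 lay just above the mock arrays and within the wild-type range, while clone 8 and the array labelled clone 7 replicate 3 lay higher. The difference over both clones was log2 0.38 ± 0.07 SE, limma adjusted p = 0.00589.

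Fibrillin 1 (FBN1), the main protein of the microfibrils that carry elastin, stood higher in the clones than in mock but lower than in wild-type cells. It measured 12.01, 12.12 and 12.38 in clone 8, 12.39, 12.37 and 12.16 in clone 7, 11.91, 11.80 and 11.83 in mock and 12.90, 13.01 and 12.90 in wild-type cells (probe set 7988467, chromosome 15). The 4 groups fell into 3 levels with no overlap, wild-type above the clones and the clones above mock. The clones lay above mock by log2 0.39 ± 0.08 SE, limma adjusted p = 0.0150, and the call was lost in limma without mock replicate 1, 2 or 3, in turn (adjusted p = 0.0515, 0.0947 and 0.0763). LOXL1, a lysyl oxidase that acts on elastin, had the smallest difference that passed. Its levels were 12.40, 12.40 and 12.53 in clone 8, 12.43, 12.49 and 12.45 in clone 7, 12.32, 12.23 and 12.17 in mock and 12.55, 12.59 and 12.54 in wild-type cells (probe set 7984771, chromosome 15). The mock arrays were the lowest. The difference of log2 0.21 ± 0.05 SE, limma adjusted p = 0.0324 did not pass without wild-type replicate 1 or 3, any 1 of the mock replicates, or clone 7 replicate 1 or 2 (limma adjusted p 0.0502 to 0.173).

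**Figure D3:**
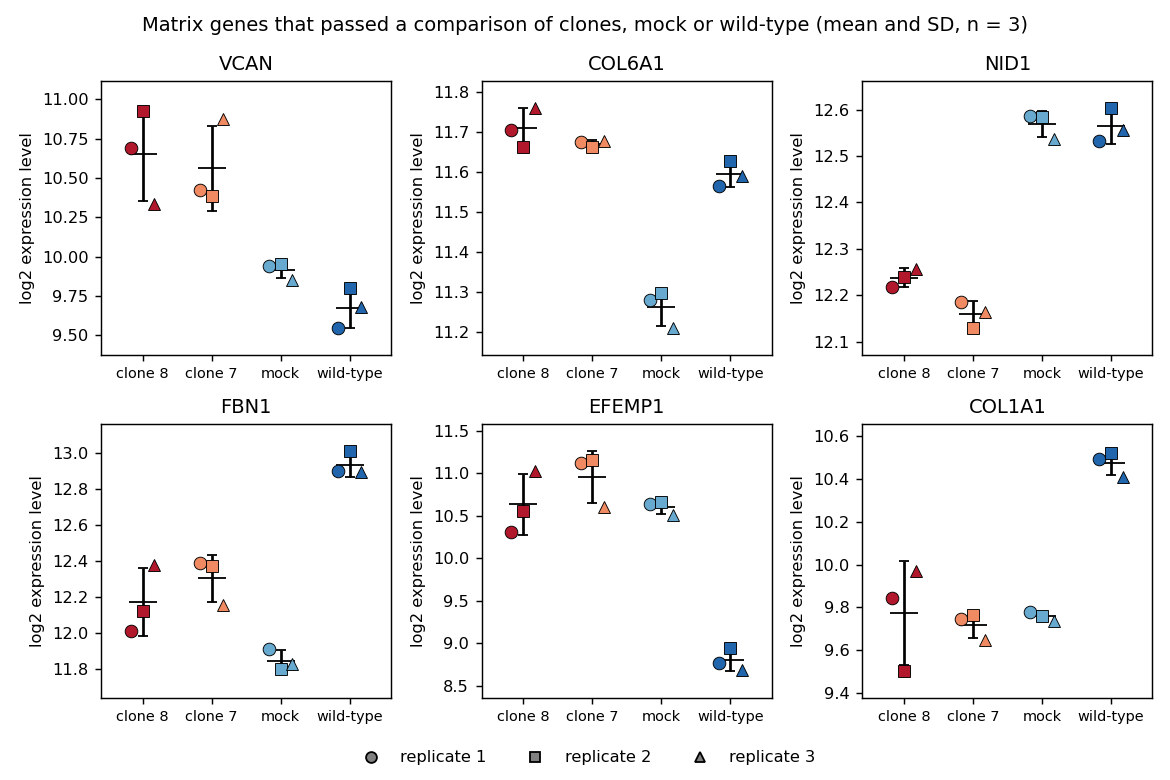
Log2 expression level (vertical axis) of 6 matrix genes by group, with 1 symbol per array and the mean and SD of 3 arrays. VCAN and COL6A1 are higher and NID1 is lower in all 6 clone arrays than in mock, FBN1 has its lowest arrays in mock, and EFEMP1 and COL1A1 separate the wild-type arrays from the rest.

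Over both clones against mock, 10 matrix genes had all 6 clone arrays above all 3 mock arrays and 4 had all 6 below, where 5.77% and 8.39% of all genes did. The genes above, beside the 6 that passed, were COL4A1, COL5A1, COL6A3 and COL12A1. The genes below were NID1, COL3A1, PCOLCE and PRRX1. COL12A1, a collagen that lies on the surface of fibrils, differed by 0.51 ± 0.14 SE (limma adjusted p = 0.0570), and PRRX1, a homeobox factor of mesenchymal cells, by -0.66 ± 0.19 SE (limma adjusted p = 0.0675). Of the 5 fibrillar collagen chains 0 passed in limma. An unadjusted p under 0.05 was found for 2, in opposite directions: COL3A1 was lower (-0.68) and COL5A1 higher (0.14). Without the arrays labelled clone 7 replicate 3 and clone 8 replicate 3, 16 genes passed, 9 higher and 7 lower, where 13.1% of all genes passed, 5.47% higher and 7.65% lower. The 9 added were COL4A1, COL4A2 and COL12A1, higher, and COL1A2, COL3A1, LAMA4, POSTN, PCOLCE and PRRX1, lower.

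Set against mock 1 clone at a time, clone 8 and clone 7 each had 5 matrix genes that passed, 4 higher and 1 lower. For clone 8, 5.09% of all genes passed, 1.97% higher and 3.12% lower, and for clone 7 3.14% passed, 1.82% higher and 1.32% lower. NID1, COL6A1, COL6A2 and VCAN passed for both clones. HSPG2 passed for clone 8 (log2 0.47 ± 0.08 SE, limma adjusted p = 0.00596) and measured 0.29 ± 0.08 SE in clone 7, where limma gave an adjusted p of 0.0660. FBN1 passed for clone 7 (log2 0.46 ± 0.09 SE, limma adjusted p = 0.0222) and measured 0.32 ± 0.09 SE in clone 8, with a limma adjusted p of 0.0707. Both comparisons use the same 3 mock arrays. Without the arrays labelled clone 7 replicate 3 and clone 8 replicate 3, the HSPG2 mean was 11.07 in clone 8 and 10.78 in clone 7, against 10.58 in mock. The FBN1 mean was then 12.07 in clone 8 and 12.38 in clone 7, against 11.85 in mock. NID1 and COL6A1 kept their calls in both clones whichever single array was left out. With the arrays of clone 8 and mock fitted alone, NID1, COL6A2 and VCAN did not pass for clone 8 (limma adjusted p = 0.0767, 0.0849 and 0.0525), and with the replicate number as a block COL6A2, FBN1 and VCAN did not pass for clone 7 (limma adjusted p = 0.0837, 0.0607 and 0.0804). Each of the 12 left-out arrays other than clone 8 replicates 1, 2 and 3 cost clone 7 at least 1 of its other calls (limma adjusted p up to 0.177, for COL6A2 without mock replicate 2), and leaving out mock replicate 1, 2 or 3, or clone 8 replicate 1, cost clone 8 the call of VCAN or COL6A2 (limma adjusted p up to 0.0735).

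Set directly against each other under their labels, clone 8 and clone 7 differed in 0 of the 40 matrix genes and 0 of 18417 genes in limma (0% of all genes), with an unadjusted p under 0.05 in 3 matrix genes and 1328 of all genes. The levels nonetheless fell into separate sets within each clone label, most widely for POSTN. The genes of the next paragraphs were chosen after their values were seen, by a difference of at least 1.5-fold between the remaining arrays of the clones. Exceptions were COL4A1 and COL4A2, the pair with the promoters shown above (1.45-fold and 1.33-fold without the 2 clone arrays), and COL1A1, LAMB1 and LAMC1, given beside their partner chains.

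Periostin (POSTN) is a matricellular protein that binds collagen and integrins. Its levels were 8.21, 8.90 and 11.87 in clone 8, 11.96, 12.02 and 8.78 in clone 7, 10.73, 10.75 and 10.71 in mock and 12.76, 12.75 and 12.57 in wild-type cells (probe set 7971077, chromosome 13). Clone 8 replicates 1 and 2 and the array labelled clone 7 replicate 3 lay below all mock arrays, while clone 7 replicates 1 and 2 and the array labelled clone 8 replicate 3 lay above all mock arrays. As labelled, the clones overlapped widely, at 9.66 ± 1.95 in clone 8 and 10.92 ± 1.85 in clone 7 (SD, n = 3 each). Without the 2 clone arrays, clone 8 lay -3.44 from clone 7 and -2.18 from mock, and clone 7 lay 1.26 from mock (log2).

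FAP, a serine protease on the surface of activated fibroblasts, divided the clone arrays in the same way. Its levels were 6.61, 6.77 and 8.47 in clone 8, 8.92, 8.93 and 6.72 in clone 7, 7.90, 7.85 and 7.86 in mock and 8.04, 8.05 and 8.04 in wild-type cells (probe set 8056257, chromosome 2). Without the 2 clone arrays clone 7 lay 1.06 above mock (log2) and clone 8 lay below mock, by an amount that is not given because its 2 arrays were dim. LOX, which oxidizes lysines for cross-links of collagen and elastin, behaved alike on a smaller scale. It measured 11.19, 11.44 and 12.42 in clone 8, 12.43, 12.36 and 11.29 in clone 7, 11.84, 11.81 and 11.67 in mock and 12.25, 12.22 and 12.25 in wild-type cells (probe set 8113709, chromosome 5). With those arrays left out, clone 8 lay -0.46 and clone 7 0.62 from mock, and FN1, which encodes fibronectin, lay -0.44 and 0.28 from it.

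In the fibrillar collagens COL1A2 and COL3A1, 1 set of clone arrays fell below mock and the other lay close to it or above. COL1A2, a chain of collagen I, measured 10.04, 10.21 and 12.02 in clone 8, 12.09, 12.10 and 10.17 in clone 7, 11.75, 11.62 and 11.66 in mock and 12.70, 12.80 and 12.65 in wild-type cells (probe set 8134263, chromosome 7). COL3A1, the chain of collagen III, measured 10.11, 10.07 and 11.28 in clone 8, 11.28, 11.34 and 10.04 in clone 7, 11.38, 11.35 and 11.36 in mock and 12.15, 12.18 and 12.11 in wild-type cells (probe set 8046922, chromosome 2). The low arrays were the same 3 as for POSTN, and the high COL1A2 arrays stood above mock but under wild-type. The partner chain in collagen I did not divide in this manner. COL1A1 measured 9.84, 9.50 and 9.97 in clone 8, 9.74, 9.77 and 9.65 in clone 7, 9.78, 9.76 and 9.74 in mock and 10.50, 10.52 and 10.41 in wild-type cells (probe set 8016646, chromosome 17). The COL1A1 arrays of both clones lay around the mock arrays, at -0.01 ± 0.09 SE from mock. Without the 2 clone arrays clone 8 lay -1.55 from mock for COL1A2 and -0.09 for COL1A1.

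PCOLCE encodes a glycoprotein that speeds removal of the procollagen end peptide. Its levels were 10.10, 10.18 and 12.11 in clone 8, 12.02, 12.17 and 10.37 in clone 7, 12.25, 12.18 and 12.19 in mock and 12.82, 12.71 and 12.72 in wild-type cells (probe set 8134869, chromosome 7). Clone 8 replicates 1 and 2 and the array labelled clone 7 replicate 3 were the low ones, and the other 3 clone arrays lay just under the mock arrays. Without the 2 clone arrays clone 8 lay -2.06 and clone 7 -0.11 from mock. LAMA4, a laminin chain of vessel basement membranes, followed the same order. Its levels were 8.07, 8.35 and 9.25 in clone 8, 9.42, 9.43 and 8.32 in clone 7, 9.40, 9.31 and 9.32 in mock and 9.25, 9.46 and 9.41 in wild-type cells (probe set 8128991, chromosome 6). The other laminin chains, LAMB1 and LAMC1, differed by 0.20 and -0.04 between clone 8 and clone 7 without those arrays, where LAMA4 differed by -1.21.

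A smaller set ran the opposite way. Lumican (LUM), a small leucine-rich proteoglycan, was lowest in clone 7 replicates 1 and 2 and the array labelled clone 8 replicate 3. Its levels were 8.56, 9.21 and 7.54 in clone 8, 7.56, 7.59 and 9.33 in clone 7, 8.38, 8.51 and 8.31 in mock and 8.14, 8.35 and 8.37 in wild-type cells (probe set 7965403, chromosome 12). The collagen IV chains also lay highest in clone 8 replicates 1 and 2 and the array labelled clone 7 replicate 3. COL4A1 measured 10.50, 10.58 and 10.03 in clone 8, 10.00, 10.00 and 10.63 in clone 7, 9.92, 9.83 and 9.75 in mock and 9.88, 9.90 and 9.87 in wild-type cells (probe set 7972750, chromosome 13). COL4A2 measured 11.26, 11.31 and 10.93 in clone 8, 10.91, 10.85 and 11.32 in clone 7, 10.86, 10.80 and 10.79 in mock and 10.75, 10.89 and 10.77 in wild-type cells (probe set 7970033, chromosome 13). The wild-type and mock arrays of both chains overlapped, and clone 7 replicates 1 and 2 averaged 0.17 and 0.06 above mock. In clone 8 without its replicate 3 the differences from mock were 0.71 for COL4A1 and 0.47 for COL4A2, the pair with adjoining promoters shown above. VCAN, for which every clone array was above mock, had the same order among the clone arrays.

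**Figure D4:**
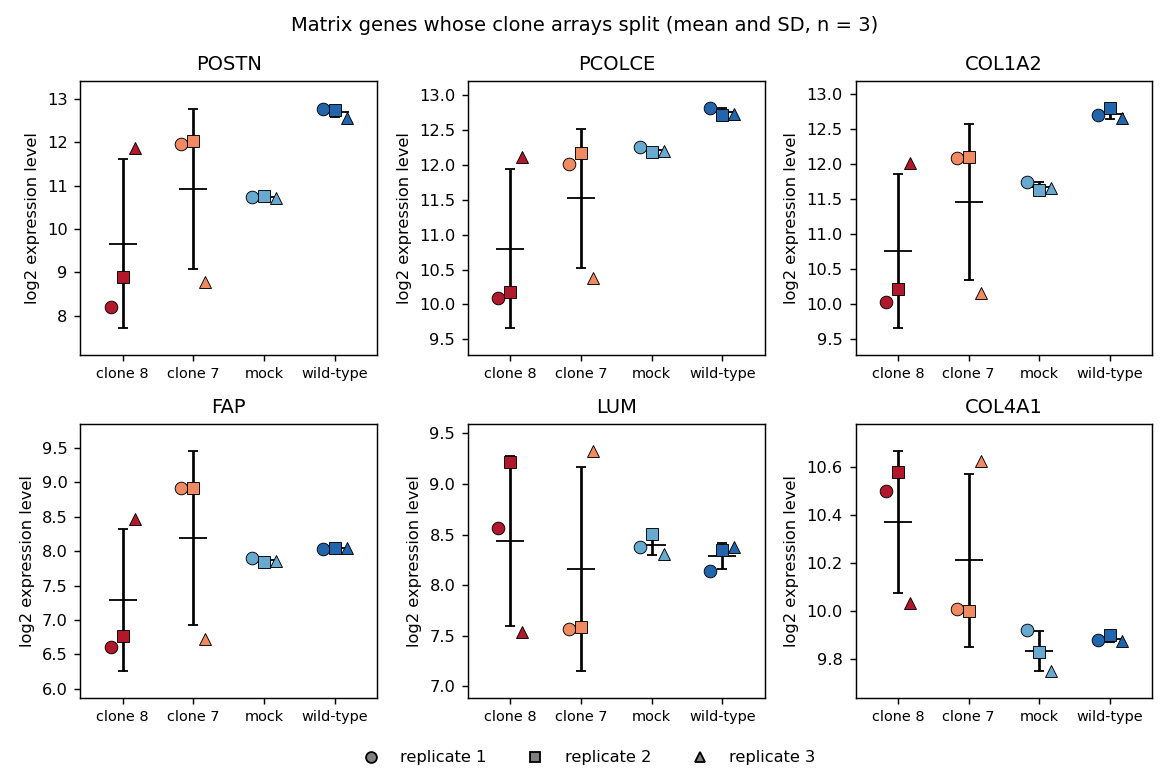
Log2 expression level (vertical axis) of 6 matrix genes by group, with 1 symbol per array and the mean and SD of 3 arrays. In each panel the array labelled clone 8 replicate 3 lies nearer clone 7 replicates 1 and 2, and the array labelled clone 7 replicate 3 nearer clone 8 replicates 1 and 2.

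Without the arrays labelled clone 7 replicate 3 and clone 8 replicate 3, 22 of the 40 matrix genes passed between clone 8 and clone 7, 5 higher and 17 lower in clone 8, where 17.2% of all genes passed, 6.52% higher and 10.7% lower, and 13 of the 22 differed by at least 1.5-fold, where 3.35% of all genes did. The 5 higher genes were LUM, COL4A1, COL4A2, VCAN and HSPG2. The 12 lower by at least 1.5-fold were POSTN, FAP, COL1A2, PCOLCE, COL3A1, LAMA4, LOX, PRRX1, FN1, EFEMP1, EFEMP2 and COL12A1, with differences of -3.44 to -0.62. In the same fit 21 genes passed for clone 8 against mock, 8 higher and 13 lower (13.7% of all genes, 4.93% higher and 8.73% lower), and 15 for clone 7 against mock, 13 higher and 2 lower (14.3% of all genes, 7.5% higher and 6.8% lower). These counts are given as a description, because the arrays left out were chosen by how they resembled the other clone.

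The comparison of mock with wild-type cells shows how far the empty-vector line differed from untransfected cells, and it shares the mock arrays with the comparisons above. The vector, drug selection and differences between lines cannot be told apart in it. Here 8 matrix genes passed, 1 higher and 7 lower in mock, where 2.24% of all genes passed, 1% higher and 1.24% lower, and 5 of them differed by at least 1.5-fold, where 0.673% of all genes did. The median of the 40 genes was -0.09, against 0.02 over all genes. EFEMP1, which encodes fibulin-3, a glycoprotein of elastic fibres and vessel walls, was the gene that was higher. Its levels were 10.31, 10.56 and 11.03 in clone 8, 11.12, 11.15 and 10.61 in clone 7, 10.64, 10.66 and 10.51 in mock and 8.77, 8.94 and 8.68 in wild-type cells (probe set 8052355, chromosome 2). All 9 transfected arrays lay above the wild-type arrays, and the mock arrays fell within the range of the clones. Mock was 3.5-fold above wild-type (log2 1.81 ± 0.17 SE, limma adjusted p = 0.000126).

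The genes lower in mock were led by PRRX1 and FBN1. PRRX1 measured 9.28, 9.52 and 10.19 in clone 8, 10.20, 10.24 and 9.44 in clone 7, 10.52, 10.46 and 10.43 in mock and 11.73, 11.83 and 11.91 in wild-type cells (probe set 7907222, chromosome 1). It was lowest in clone 8 replicates 1 and 2 and the array labelled clone 7 replicate 3, intermediate in the other clone arrays and mock, and highest in wild-type cells. The difference between mock and wild-type was log2 -1.35 ± 0.22 SE, limma adjusted p = 0.00737 for PRRX1 and log2 -1.09 ± 0.09 SE, limma adjusted p = 6.33e-05 for FBN1. COL1A1 was lower in mock by 0.72 (SE 0.10, limma adjusted p = 0.00188). COL5A2, a chain of collagen V, which lies inside collagen I fibrils, was lower by 0.63 (SE 0.08, limma adjusted p = 0.000832). Its levels were 11.59, 11.72 and 11.79 in clone 8, 11.94, 11.94 and 11.72 in clone 7, 11.70, 11.62 and 11.72 in mock and 12.28, 12.38 and 12.26 in wild-type cells (probe set 8057620, chromosome 2). No COL5A2 array of the clones or mock reached the wild-type range. COL6A1, COL6A2 and LOXL1 were the other 3, at -0.33, -0.34 and -0.32. The COL6A2 call was lost in limma without wild-type replicate 2 or mock replicate 2 (adjusted p = 0.0697 and 0.0824), and the LOXL1 call without any 1 of the wild-type replicates or mock replicate 2 or 3 (adjusted p 0.0539 to 0.0902).

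Array by array, 17 matrix genes lay wholly lower and 4 wholly higher in mock than in wild-type cells, where 13.3% and 15.6% of all genes did. POSTN, COL1A2, COL3A1 and COL8A1 were among the 17 without passing, at -1.96, -1.04, -0.79 and -0.66 (limma adjusted p = 0.406, 0.477, 0.360 and 0.0504). The error of these differences is pooled over all 4 groups, so the spread of the clone arrays enters it. With the mock and wild-type arrays fitted alone, 17 matrix genes passed, 2 higher and 15 lower, where 10.6% of all genes did, 5.22% higher and 5.37% lower. Without the 2 clone arrays 15 passed, 1 higher and 14 lower, where 7.07% of all genes did, 3.41% higher and 3.66% lower.

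Both clones together against wild-type cells gave 13 matrix genes that passed, 4 higher and 9 lower, where 9.95% of all genes passed, 4.63% higher and 5.32% lower, and 9 with at least a 1.5-fold difference, where 1.58% did. The median of the list was -0.06, against 0.03 over all genes. EFEMP1 (4-fold, log2 2.00 ± 0.15 SE, limma adjusted p = 9.18e-06), VCAN (0.93 ± 0.13 SE), COL12A1 (0.57 ± 0.14 SE) and COL6A3 (0.44 ± 0.10 SE) were higher. Among the genes that passed, PRRX1 was the lowest relative to wild-type, 4.03-fold lower (log2 -2.01 ± 0.19 SE, limma adjusted p = 6.07e-05). Of the fibrillar collagens, COL1A2, COL3A1, COL1A1 and COL5A2 were lower, at -1.61, -1.46, -0.73 and -0.52, and the remaining chain, COL5A1, measured -0.10 ± 0.06 SE (limma adjusted p = 0.314). PCOLCE, COL8A1, FBN1 and NID1 were also lower, at -1.59, -0.84, -0.70 and -0.36. COL8A1 encodes a short-chain collagen of vessel walls. Its levels were 9.70, 9.93 and 10.27 in clone 8, 10.33, 10.28 and 9.80 in clone 7, 10.25, 10.22 and 10.21 in mock and 10.88, 11.08 and 10.71 in wild-type cells (probe set 8081235, chromosome 3). The wild-type arrays were the highest, and the mock arrays lay between the 3 lower and the 3 higher clone arrays.

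Array by array, 7 matrix genes lay above and 13 below all wild-type arrays in all 6 clone arrays, where 6.88% and 8.38% of all genes did. Several of the calls against wild-type did not pass when 1 array was left out. With the replicate number as a block, COL1A2, PCOLCE and COL12A1 did not pass either (limma adjusted p = 0.0819, 0.0767 and 0.0587). The COL1A2 call was lost in limma without any 1 of the wild-type or mock replicates or clone 8 replicate 1 or 2 (adjusted p 0.0523 to 0.151), and the PCOLCE call without any 1 of the wild-type or mock replicates or clone 8 replicate 1 (adjusted p 0.0579 to 0.130). COL12A1 was lost without any 1 of the wild-type replicates or clone 7 replicate 1 or 2 (adjusted p 0.0553 to 0.116), and COL6A3 without wild-type replicate 2 or 3 (adjusted p = 0.0916 and 0.0775). The other 9 calls, among them EFEMP1, PRRX1, VCAN, COL3A1 and FBN1, passed whichever single array was left out. Without the arrays labelled clone 7 replicate 3 and clone 8 replicate 3, 22 genes passed, 7 higher and 15 lower, where 17.1% of all genes did, 7.42% higher and 9.65% lower.

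**Figure D5:**
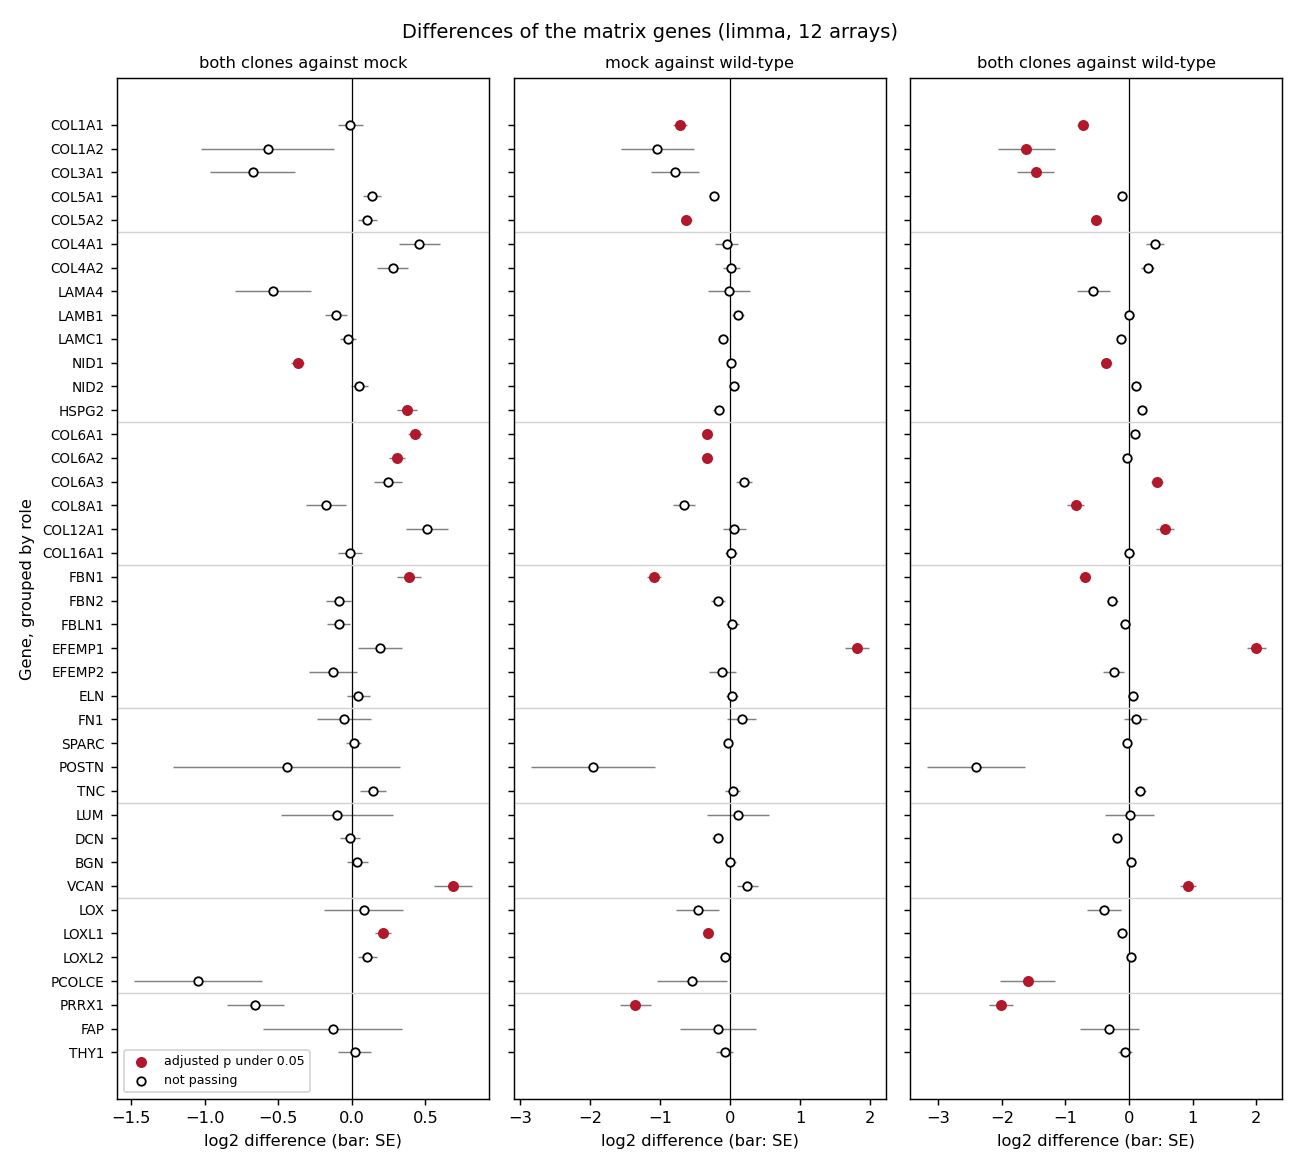
Fitted log2 difference (horizontal axis, bars show the SE) of each of the 40 matrix genes in 3 comparisons, one to a panel, with filled points at an adjusted p under 0.05 in limma. Of the 40 genes 7, 8 and 13 passed in turn, FBN1 lay above 0 against mock and below 0 in both other panels, and the bars of POSTN, COL1A2, PCOLCE and FAP are the widest.

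The genes not yet described passed none of the 6 comparisons in limma as labelled. SPARC differed by 0.01 ± 0.05 SE between clones and mock, and elastin (ELN), biglycan (BGN), COL16A1, LAMC1 and decorin by 0.04, 0.04, -0.01, -0.03 and -0.01. THY1, a surface glycoprotein of fibroblasts and neurons, lay at 0.02 ± 0.11 SE, and tenascin C (TNC), an adhesion-modulating glycoprotein abundant in gliomas, at 0.14 ± 0.09 SE. FBN2, the second fibrillin measured, lay at -0.09 ± 0.09 SE where FBN1 passed, and NID2 at 0.05 ± 0.06 SE where NID1 passed. LOXL2 lay at 0.11 ± 0.07 SE, FBLN1 at -0.09 ± 0.08 SE and EFEMP2, which encodes fibulin-4, at -0.13 ± 0.16 SE. FBLN1, EFEMP2 and THY1 were among the genes that passed between the clones without the 2 clone arrays named above. Adjusted p-values above the threshold do not show equal levels.

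Genes that handle collagen elsewhere in the pathway were read for comparison, over both clones against mock, where 6.38% of all genes passed. Of the proteins that hydroxylate and fold collagen in the endoplasmic reticulum, 0 of 19 measured passed in limma (2 with an unadjusted p under 0.05), with differences of -0.24 to 0.17. Of the enzymes that cleave or cross-link it outside the cell, 0 of 10 passed (2 with an unadjusted p under 0.05), with a median difference of 0.15. Of 22 matrix receptors 2 were higher and 1 lower: the integrin chains ITGB5 (0.41 ± 0.06 SE, limma adjusted p = 0.00151) and ITGB8 (0.28 ± 0.06 SE, limma adjusted p = 0.0151) and ITGA6, a laminin-binding chain (-0.32 ± 0.06 SE, limma adjusted p = 0.00544). Of 25 further collagens 1 was higher, COL18A1 (0.20 ± 0.05 SE, limma adjusted p = 0.0466), a basement membrane collagen that lies among the chromosome 21 neighbours of COL6A1. Of 31 other matrix glycoproteins and proteoglycans 2 were higher, TGFBI (0.37 ± 0.06 SE, limma adjusted p = 0.00330) and EMILIN2 (0.26 ± 0.07 SE, limma adjusted p = 0.0351). In mock against wild-type, where 2.24% of all genes passed, the counts were 0 of 19, 2 of 10, 0 of 22, 0 of 25 and 2 of 31.

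Marker lists of other cell types were read beside these results. In both clones against mock, 1 of 8 astroglial markers passed and was lower (NES), and 0 of 5 endothelial, 4 leukocyte, 4 epithelial, 4 neuronal, 2 oligodendroglial and 4 pericyte and smooth muscle markers passed in limma, with an unadjusted p under 0.05 in 0 of the endothelial, leukocyte, neuronal and oligodendroglial markers and in 1 epithelial and 1 pericyte and smooth muscle marker. The mean log2 level of the pericyte and smooth muscle list was 9.80 to 10.25 in clone 8, 9.77 to 10.13 in clone 7, 10.06 to 10.16 in mock and 9.97 to 10.05 in wild-type cells. That of the astroglial list was 8.06 to 8.35 in clone 8, 8.15 to 8.22 in clone 7, 8.25 to 8.27 in mock and 8.27 to 8.35 in wild-type cells. The part of other cell types in the matrix results was not tested.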

How the data were processed

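RNA from 12 cultures of A172 cells (3 each of clone 8, clone 7, mock and wild-type) was hybridized to GeneChip Human Gene 1.0 ST arrays, 1 per culture. The values that the authors deposited were log2 levels, normalized and with the probes of a set combined before deposit. Partek stands in the submitters' processing notes, while its settings are not stated in the sources read. All 33297 probe sets had a value on each array. A single gene symbol was listed for 19460 of them, and the probe set with the highest mean was kept for each of 18417 genes. The 40 matrix genes had 1 such probe set each.

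Using limma (version 3.58.1; R 4.3.3, with the data.table package at 1.17.8), lmFit and eBayes were run on all 4 groups at once, after the code had been tested on simulated data. For each of 6 comparisons the p-values of all 18417 genes were corrected together (Benjamini-Hochberg), and a gene passed at an adjusted p under 0.05. A stricter count also asked for a 1.5-fold difference. Errors are SEs of the fit or SDs over 3 arrays. The number of arrays limits the precision, and array values carry no read depth. Cultures were biological replicates by the study's methods.

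Values on every array were given for genes that passed in both clones against mock, or with 1.5-fold in any comparison as labelled. They were also given for genes said to be chosen after their values were seen, except FN1, LAMB1 and LAMC1, given as differences. Of the further gene lists, at most 3 genes per list that passed were named. The genes and lists were chosen with earlier results of these data known. Alternatives were quantile normalization, equal medians, dim genes left out, a variance trend, the mean of all probe sets, the compared groups alone, the replicate number as a block, each array left out in turn and, added after the data were seen, 2 clone arrays left out. Chromosomes, gene order and promoters came from RefSeq (GRCh38.p14).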

Additional observations from a re-analysis of the deposited data

How the results depend on the processing

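The 38 differences that passed were refitted under 20 alternatives. Of 760 refitted values 677 still passed, 83 did not and 0 changed sign. The 6 medians moved by less than the spread between replicates. They were small beside that spread, so this limit could not show whether a median kept its sign. In the fits without 1 array, the median ran -0.01 to 0.05 for both clones against mock. For clone 7 and clone 8 against mock it ran -0.0004 to 0.13 and -0.01 to 0.04. In the other comparisons the medians stayed negative in these fits. A gene's difference could not change under the mean of all probe sets, dim genes left out, a variance trend or the compared groups alone. Nor could it under the replicate block or with a left-out array outside the comparison, so many of these refits could not change sign. Without the arrays labelled clone 7 replicate 3 and clone 8 replicate 3, the genes passing numbered 16 for both clones against mock, 15 for clone 7 against mock, 21 for clone 8 against mock, 22 for clone 8 against clone 7, 15 for mock against wild-type and 22 for both clones against wild-type. With the compared groups fitted alone, 2 passed for clone 8 against mock (0.809% of all genes) and 17 for mock against wild-type (10.6%). With 1 array left out, the counts ran 4 (without mock replicate 3) to 13 (without clone 8 replicate 3), 2 to 7, 3 to 11, 0 to 0, 6 to 9 and 9 to 17 in the same order of comparisons, while the share of all genes passing ran 1.99% to 11.5%, 0.988% to 5.3%, 1.21% to 18.2%, 0% to 0%, 0.896% to 3.34% and 4.21% to 19%. The extremes of the counts and of the shares can come from different fits. For both clones against mock, 2.47% of all genes passed without mock replicate 3 and 7.86% without clone 8 replicate 3. With 1 array left out, the LUM difference between clone 8 and clone 7 ran -0.11 to 0.86. LOXL1 in both clones against mock did not pass with arrays shifted to the same median, the compared groups alone or the replicate block (limma adjusted p = 0.0600, 0.0827 and 0.0742). The cause was not tested.

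Over 18 pairs of same-numbered arrays, deviations from the group means correlated at -0.83 to 0.45, above 0.1 in 4. Between wild-type and mock arrays the correlations were -0.26, -0.07 and -0.15 for replicates 1, 2 and 3. The clone means include the 2 arrays that resembled the other clone, so the check cannot decide whether the replicate number pairs the clone arrays with others. With the number as a block, the counts were 6, 2, 5, 0, 7 and 10, where 4.09%, 1.79%, 2.71%, 0%, 1.41% and 7.21% of all genes passed. With 3 arrays per group, 1 line per clone and no detection calls, small differences and dim genes such as DCN were not resolvable.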
